A study of Mus musculus with 139 samples.

Results

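The genes described here belong to antigen presentation by MHC class II and are followed in the lung. H2-Aa and H2-Ab1 code for the alpha and beta chains of the I-A molecule, and H2-Eb1 for the beta chain of the I-E molecule. H2-DMa codes for a subunit of the peptide exchange factor H2-M and Cd74 for the invariant chain. Ciita codes for the transcriptional coactivator of the class II genes. All were looked up in the deposited array values by symbol, using rows paired with exactly 1 gene symbol. Of the 6 listed genes, 5 had such a row, out of 22180 genes in all. Each of the 5 had 1 row. The row of Cd74 is also paired with the microRNA gene Mir5107, so Cd74 is not analysed here.

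RNA was measured on arrays from lung tissue of male mice, whose strain the labels spell C57BL/J6 and which were 7 weeks old when obtained. Each mouse received a single dose of 50 µL by pharyngeal aspiration, in which a droplet placed at the base of the tongue is breathed in. The dose was multi-walled carbon nanotubes (MWCNT, stiff carbon fibres) at 1, 10, 40 or 80 µg, crocidolite asbestos at 120 µg, or the dispersion medium alone (DM, a buffered saline with glucose, mouse serum albumin and a lung surfactant lipid), which was also the vehicle of both fibres. Lung tissue was collected at 1, 6 or 12 months after the dose, so that exposure and time form 18 groups. At 1 month there were 8 mice at each MWCNT dose, 5 with crocidolite and 8 with DM. At 6 months there were 8 mice in every group. At 12 months there were 6 mice at 1 µg, 8 at each of 10, 40 and 80 µg, 7 with crocidolite and 8 with DM. The study's stated subject is how lung inflammation, fibrosis and gene expression respond to MWCNT over the year after exposure, and each exposed group is compared here with DM mice of the same time.

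MHC class II molecules display peptides from taken-up proteins to CD4 T cells. Dendritic cells, B cells and macrophages carry them in the lung, and in mice and humans type 2 alveolar epithelial cells do so as well. The alpha and beta chains assemble with the invariant chain, lysosomal proteases degrade that chain to a short peptide, and H2-M exchanges it for antigen peptides. CIITA does not bind DNA itself: it acts through factors bound to the X and Y boxes of class II promoters, and interferon gamma induces it.

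Levels are log2 array values as deposited, and differences are log2 values from a linear model fitted to all genes, with Benjamini-Hochberg adjustment over the 22180 genes. The median correlation of an array with the others was at least 0.918, with a median of 0.964, and 5 arrays were below 0.93. Lung markers were present on every array: Sftpc, the surfactant protein C gene, was between 12.26 and 12.74, and Pecam1, an endothelial gene, between 9.63 and 10.76. Of the other lung markers listed, Scgb1a1 ran from 12.25 to 12.81, while Ager (9.52 to 11.73) and Cldn5 (7.72 to 9.48) spread more widely. In 12 mice the mean over squamous epithelium or skeletal muscle markers was above 6, 9 of them for the squamous and 12 for the muscle list. The titles of 38 arrays hold the word replacement, which no label explains. One mouse (1 µg, 1 month) had 2 arrays, which were averaged. H2-Ab1 was at 10.77 and 10.83 on them and Ciita at 6.81 and 6.73. The other genes lay farther apart, with H2-Aa at 9.40 and 9.19, H2-Eb1 at 9.23 and 9.55 and H2-DMa at 7.55 and 7.82.

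Promoter sequences from RefSeq (GRCm38.p6, 250 bases before to 50 after each gene's start) were at hand for H2-Aa, H2-Eb1 and H2-DMa, while H2-Ab1, Ciita and Cd74 had no entry. The 150 bases before the start of H2-Aa (chr17:34287824-34287973, minus strand) and of H2-Eb1 (chr17:34305717-34305866, plus strand) are printed because they show the letters through which the coactivator Ciita is known to act. Capitals mark GCAAC, the core of the X box, and CTGATTGG, a Y box that holds CCAAT on the other strand.
H2-Aa: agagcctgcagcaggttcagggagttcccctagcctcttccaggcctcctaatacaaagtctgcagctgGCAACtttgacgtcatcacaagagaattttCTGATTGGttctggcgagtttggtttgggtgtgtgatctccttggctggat
H2-Eb1: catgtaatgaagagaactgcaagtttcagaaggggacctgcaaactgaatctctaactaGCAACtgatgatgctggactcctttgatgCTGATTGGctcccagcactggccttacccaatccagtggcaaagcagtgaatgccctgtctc
The first letters of the 2 words were 30 bases apart in H2-Aa and 29 bases apart in H2-Eb1. The letters were chosen after these sequences had been seen.

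Both words were searched on both strands, and neither overlaps the other. GCAAC occurred in 35.2% and CTGATTGG in 4.10% of the 32851 RefSeq promoter windows of the same 300 bases. The pair in this order on 1 strand, with first letters 15 to 45 bases apart, occurred in 44 windows, which is 0.134%. Among 12 class II genes looked up, 8 had a window and 4 held the pair: H2-Aa, H2-Eb1, H2-Oa (30 bases apart) and H2-Eb2 (29 bases apart). The windows of H2-DMa held no such pair. A match is a description of letters and not evidence of binding.

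The chains of the I-A molecule stayed in a narrow band over all 18 groups. H2-Aa had group means between 9.22 (1 µg, 12 months) and 9.56 (crocidolite, 12 months), a range of 0.34 against a pooled SD of 0.18 within groups. H2-Ab1 had group means between 10.62 (40 µg, 12 months) and 11.01 (crocidolite, 12 months), a range of 0.39 with a pooled SD of 0.18. H2-Eb1, the I-E beta chain, ranged least, from 9.54 (1 µg, 1 month) to 9.81 (crocidolite, 1 month), a range of 0.27 with a pooled SD of 0.20. The median range of group means over all genes was 0.47 and the median pooled SD 0.30, so these 3 genes lay below both medians.

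H2-DMa and Ciita had wider ranges. H2-DMa had group means between 7.32 (40 µg, 12 months) and 7.96 (crocidolite, 12 months), a range of 0.64 with a pooled SD of 0.28. Ciita had group means between 6.59 (40 µg, 12 months) and 7.21 (DM, 6 months), a range of 0.62 with a pooled SD of 0.23. When the groups were put in order, the largest step between neighbours was 0.06 for H2-Aa, 0.06 for H2-Ab1, 0.05 for H2-Eb1, 0.28 for H2-DMa and 0.20 for Ciita. Neighbouring groups thus differed by less than the pooled SD for 4 of the genes, and by an amount equal to it to 2 decimals at the low end of H2-DMa.

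**Figure D1:**
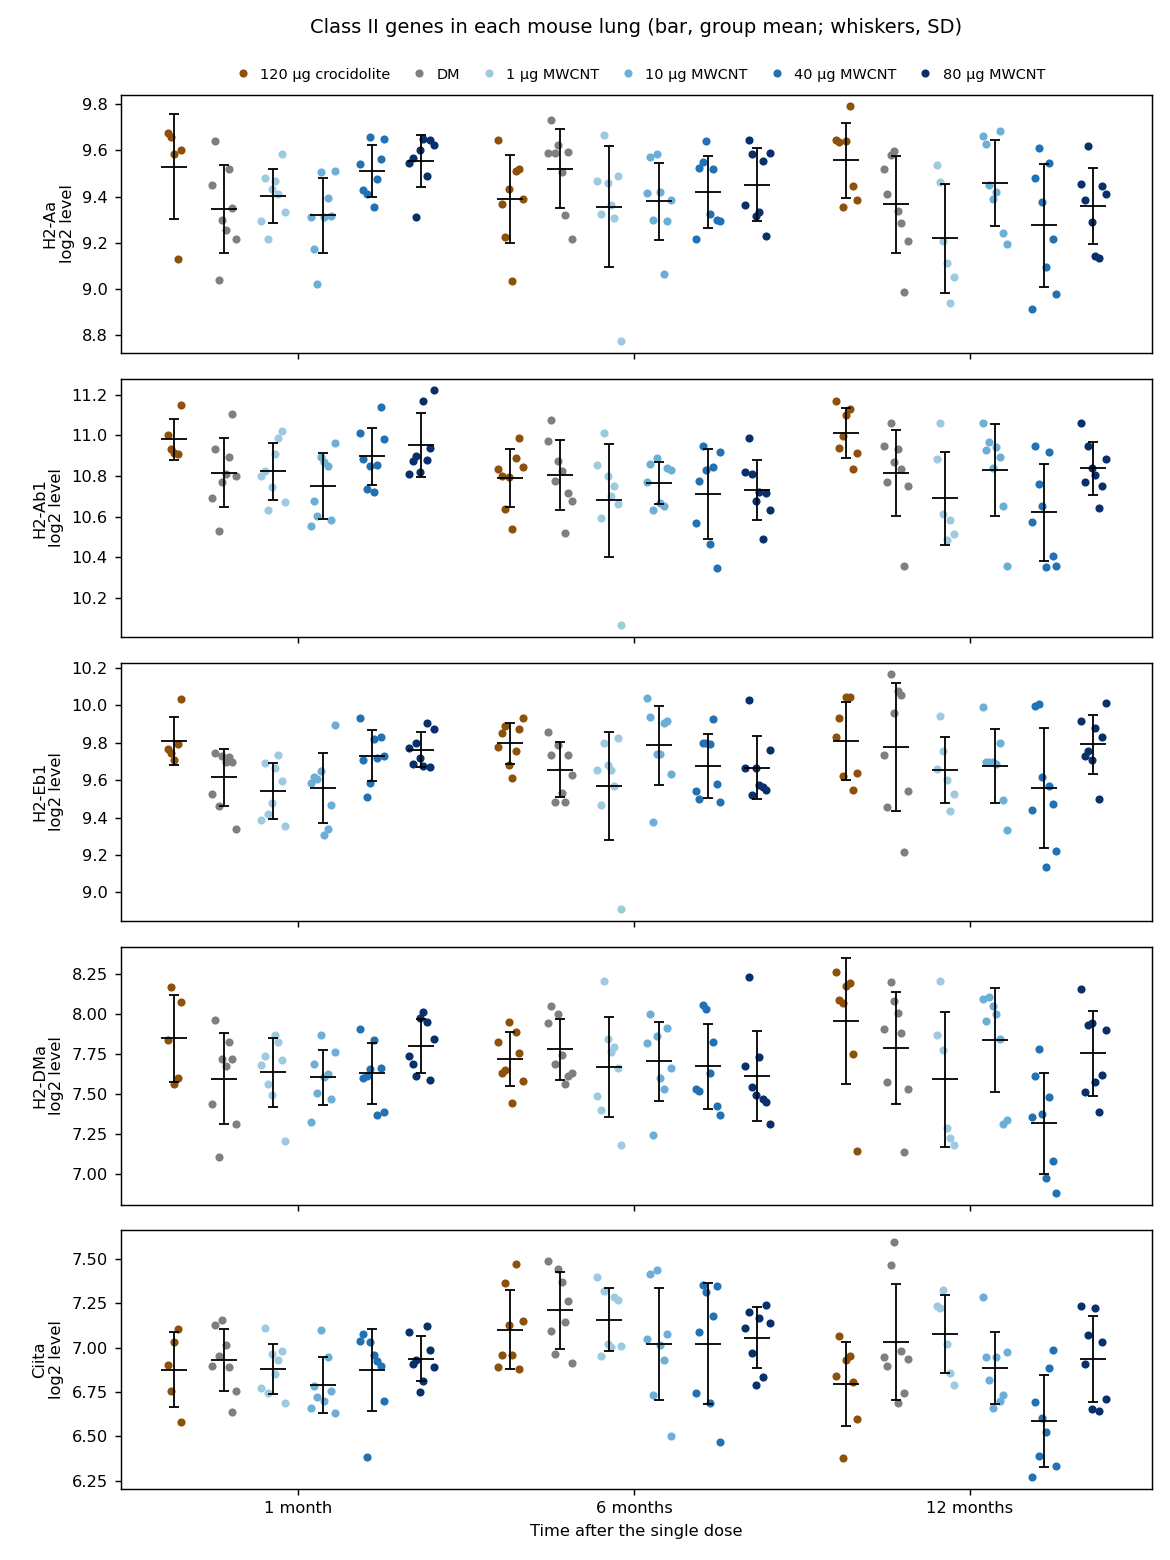
Log2 level of each class II gene (vertical axes, 1 panel per gene) in every mouse lung, by time after the dose and exposure. Points are mice, bars group means and whiskers SD. The 40 µg group at 12 months has the lowest mean of Ciita (6.59) and of H2-DMa (7.32), and 1 mouse at 1 µg and 6 months lies far below its group for H2-Aa (8.77), H2-Ab1 (10.07) and H2-Eb1 (8.91).

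An F test asked whether any of the 18 groups differed, as an addition made after the pairwise results were known. Ciita (adjusted p = 0.000651) and H2-Ab1 (adjusted p = 0.0235) passed it in limma, and H2-DMa (0.0751), H2-Aa (0.0863) and H2-Eb1 (0.152) did not. The 18 groups differ in time as well as in exposure, and a pass does not say which of these it reflects. Of all genes 23.7% passed the F test, so 2 of 5 is not far from the background. The call of H2-Ab1 was lost when arrays were centred on their medians (adjusted p = 0.0652) and among the arrays without the word replacement (adjusted p = 0.194), while Ciita passed in all 9 alternatives tried.

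High-dose MWCNT at 1 month came with slightly higher chain genes that did not pass the test. H2-Aa was between 9.31 and 9.65 with a median of 9.58 in 80 µg lungs, and between 9.04 and 9.64 with a median of 9.32 in DM lungs. The groups overlapped, with 7 of 8 exposed mice above the DM median. The difference was 0.21 ± 0.09 (SE; limma, adjusted p = 0.398; n = 8 and 8). H2-Ab1 was between 10.81 and 11.22 with a median of 10.89 at 80 µg, and between 10.53 and 11.10 with a median of 10.80 with DM, a difference of 0.13 ± 0.09 (SE). All 8 exposed mice were above the DM median of H2-Ab1, and the ranges overlapped.

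H2-Eb1 differed by 0.15, H2-DMa by 0.21 and Ciita by 0.01 at 80 µg and 1 month, with adjusted p from 0.696 to 0.996 in limma. None of the 5 genes was called there, where 1.79% of 22180 genes were. Their median difference was 0.15, and that of all genes was -0.01. The slope of the 5 group means on log2 of dose plus 1 µg was 0.03 ± 0.01 per unit for both H2-Aa (limma, adjusted p = 0.249) and H2-Eb1 (0.320), with 3.03% of all genes called for this trend and 0 of 5 here.

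At 6 months the 80 µg lungs lay close to DM. Differences ran from -0.17 for H2-DMa through -0.15 for Ciita, -0.07 for both I-A chains, to 0.01 for H2-Eb1, and 0 of 5 genes were called against 0.933% of all genes. At 12 months they ran from -0.10 for Ciita to 0.02 for H2-Ab1, with 0 of 5 called against 0.176% of all genes. The change of the 80 µg difference from 1 to 12 months was not called for any of the 5 genes (0.00902% of all genes called) and was -0.21 for H2-Aa with a 95% interval of -0.48 to 0.05.

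The highest group means of the 3 chain genes were all in crocidolite lungs, again without a difference from DM that passed the test. At 1 month H2-Aa was 9.68, 9.66, 9.58, 9.13 and 9.60 in the 5 crocidolite mice, against a range of 9.04 to 9.64 and a median of 9.32 in DM mice. Of these 5 mice 4 were above the DM median and 1 lay within the low part of the DM range. H2-Ab1 was 10.999, 10.93, 10.91, 10.91 and 11.15 in crocidolite lungs, all above the DM median of 10.80. H2-DMa was 7.84, 8.17, 7.56, 7.60 and 8.08 in crocidolite lungs, against a DM median of 7.70, so its groups overlapped widely.

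The differences at 1 month were 0.25 ± 0.16 for H2-DMa, 0.19 ± 0.11 for H2-Eb1, 0.18 ± 0.11 for H2-Aa and 0.16 ± 0.10 for H2-Ab1 (SE; limma, adjusted p from 0.402 to 0.469; n = 5 and 8). Without crocidolite replicate 4, whose H2-Aa of 9.13 stood apart, the H2-Aa difference was 0.28 (adjusted p = 0.187). Replicate 5 stood apart at the high end for H2-Eb1 (10.03, nearest 9.79), and the H2-Eb1 difference without it is not given here. Ciita differed by -0.05. None of the 5 genes was called in this comparison, against 5.76% of all genes. At 6 months the crocidolite differences ran from -0.13 for H2-Aa to 0.14 for H2-Eb1, with 0 of 5 called against 3.68% of all genes.

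At 12 months the estimates for the I-A chains were above DM in crocidolite lungs and that for the coactivator was below, none of them past the test. H2-Ab1 was between 10.83 and 11.17 with a median of 10.99 in crocidolite lungs, and between 10.36 and 11.06 with a median of 10.85 in DM lungs. The difference was 0.20 ± 0.10 (SE; limma, adjusted p = 0.263; n = 7 and 8), with 6 of 7 exposed mice above the DM median. H2-Aa differed by 0.19 ± 0.10 (adjusted p = 0.294). Ciita was between 6.38 and 7.07 with a median of 6.84 in crocidolite lungs, and between 6.69 and 7.60 with a median of 6.94 in DM lungs, a difference of -0.24 ± 0.12 (adjusted p = 0.292). Crocidolite and DM mice overlapped for all 3 genes, and 0 of 5 genes were called against 6.47% of all genes.

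H2-Eb1 differed by 0.03 and H2-DMa by 0.17 in that comparison. For both differences the sign depended on which arrays were used. Among arrays without the word replacement, which leaves 2 crocidolite and 5 DM mice, they were -0.18 (adjusted p = 0.694) and -0.28 (adjusted p = 0.599). The change of the crocidolite difference from 1 to 12 months was not called for any of the 5 genes (0.0541% of all genes called).

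Set directly against crocidolite, 80 µg MWCNT gave no called difference at 1, 6 or 12 months, where 0.0902%, 0.0271% and 0.978% of all genes were called. At 12 months H2-DMa differed by -0.20 ± 0.14 (SE; limma, adjusted p = 0.565) and H2-Aa by a like amount with less spread. H2-Aa was between 9.14 and 9.62 in 80 µg lungs and between 9.35 and 9.79 in crocidolite lungs, with all 8 MWCNT mice below the crocidolite median of 9.64. The difference was -0.20 ± 0.10 (SE; limma, adjusted p = 0.379), with a 95% interval of -0.388 to -0.0035.

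The lowest levels of Ciita and H2-DMa came at 40 µg and 12 months. Ciita was between 6.27 and 6.99 with a median of 6.56 in 40 µg lungs, and between 6.69 and 7.60 with a median of 6.94 in DM lungs. Of the 8 mice at 40 µg, 7 were below the DM median and 5 were below every DM mouse, and the 2 groups overlapped in the other mice. The difference was -0.45 ± 0.12 (SE; limma, adjusted p = 0.0786; n = 8 and 8), the lowest adjusted p of any of these genes in any of the 25 comparisons. H2-DMa was between 6.88 and 7.78 with a median of 7.36 at 40 µg, and between 7.14 and 8.20 with a median of 7.89 with DM. All 8 exposed mice were below the DM median, 3 of them below every DM mouse, and the difference was -0.47 ± 0.14 (adjusted p = 0.144). The lowest DM mouse for H2-DMa was replicate 7, which was also the lowest DM mouse for H2-Aa, H2-Ab1 and H2-Eb1.

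The chain genes differed by -0.22 ± 0.10 for H2-Eb1, -0.19 ± 0.09 for H2-Ab1 and -0.09 ± 0.09 for H2-Aa in the same lungs (SE; limma, adjusted p from 0.366 to 0.750). None of the 5 genes was called, against 0.0361% (8 of 22180) of all genes, and the median difference was -0.22 against -0.01 over all genes. Whether Ciita or H2-DMa passed the test depended on the processing. Ciita passed when only genes with a mean of 5 or more were tested (adjusted p = 0.0442), without the arrays correlating below 0.93 (0.0345) and without 40 µg replicate 7 (0.0458). With array weights both H2-DMa (0.0146) and Ciita (0.0358) passed, and H2-Eb1 was at -0.33 (0.0504). Other settings moved away from the test. With the groups of the comparison alone in the fit, both Ciita and H2-DMa were at 0.485 (limma, adjusted p). After quantile normalization Ciita was at 0.119 and H2-DMa at 0.141. With single mice left out, the adjusted p reached 0.240 for Ciita and 0.297 for H2-DMa.

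The word in the titles was on 4 of 8 arrays at 40 µg and on 3 of 8 with DM in this comparison. Among the arrays without it, H2-DMa differed by -0.63 (adjusted p = 0.0333), H2-Eb1 by -0.42 (0.0724) and Ciita by -0.31 (0.322). Among those with it, H2-DMa differed by -0.36 (0.846), H2-Eb1 by -0.02 (0.999) and Ciita by -0.61 (0.53). The sign of these 3 genes was the same in either set of arrays, but their sizes and order were not, and H2-DMa passed the test in the arrays without the word and none of the 3 in those with it.

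The doses around 40 µg did not show lower Ciita to the same extent at 12 months. Ciita averaged 7.08 ± 0.22 at 1 µg, 6.88 ± 0.20 at 10 µg, 6.59 ± 0.26 at 40 µg and 6.94 ± 0.24 at 80 µg (SD, n = 6 at 1 µg and 8 at the others). H2-DMa averaged 7.59 ± 0.42, 7.84 ± 0.33, 7.32 ± 0.32 and 7.75 ± 0.27 at those doses. A comparison added after these values were seen put 80 µg above 40 µg by 0.35 ± 0.12 for Ciita and by 0.44 ± 0.14 for H2-DMa (SE; limma, adjusted p = 0.182 and 0.175), with 0 of 5 genes called and 0.00451% of all genes. The slope of Ciita on log2 of dose plus 1 µg at 12 months was -0.05 ± 0.02 (limma, adjusted p = 0.1004), and 0 of 5 genes were called for that trend against 1.2% of all genes.

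**Figure D2:**
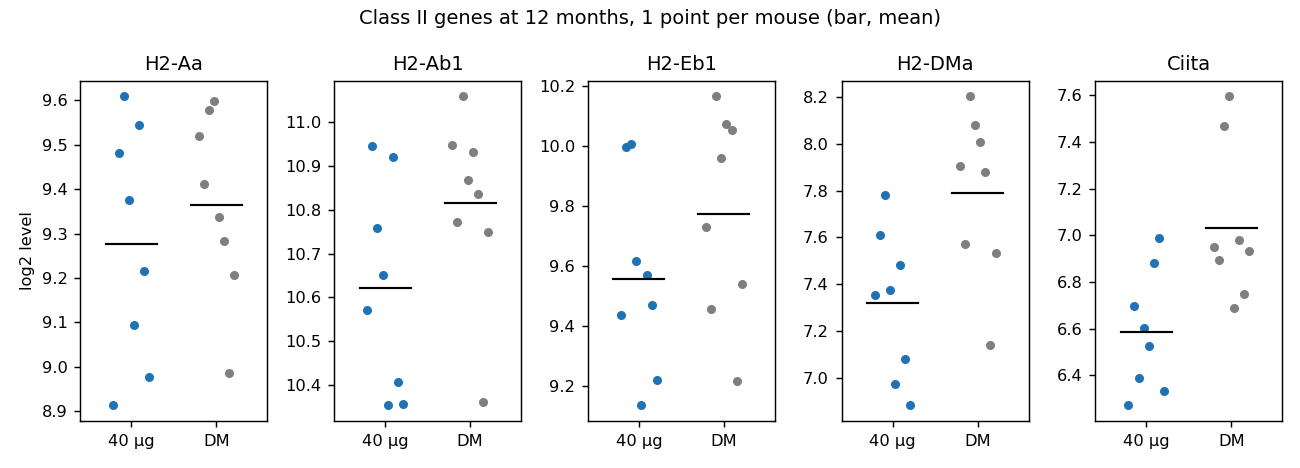
Log2 levels of the class II genes at 12 months in 40 µg MWCNT lungs and in DM lungs, 1 point per mouse, with group means as bars. For Ciita 5 of 8 mice at 40 µg lie below every DM mouse and for H2-DMa 3 of 8 do, while for H2-Aa 2 of 8 do and the groups overlap widely.

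Markers of lymphocytes and of the other cells that carry class II in these 12-month lungs are given beside this result. For B cell markers the median difference between 40 µg and DM was -0.47 with 0 of 11 called, and the mean over the list was between 5.94 and 7.11 at 40 µg and between 6.60 and 7.39 with DM. For T cell markers the median difference was -0.36 with 0 of 6 called. For conventional dendritic cell markers it was -0.04 with 0 of 9 called, and the list mean was between 5.29 and 5.71 at 40 µg and between 5.32 and 5.76 with DM. The median difference was 0.08 for monocyte-derived and interstitial macrophage markers, -0.05 for alveolar macrophage markers and 0.02 for type 2 epithelial markers, with 0 of 10, 0 of 8 and 0 of 8 called. At 80 µg and 12 months the B cell median difference was -0.51, beside a Ciita difference of -0.10. The part of these cells in the result was not tested, and in whole lung fewer cells of a type and less RNA per cell cannot be told apart.

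The lower doses gave no call either. At 40 µg the differences were between -0.05 and 0.16 at 1 month and between -0.19 and 0.02 at 6 months, with 0 of 5 genes called at both times (0.573% and 0.212% of all genes). At 10 µg they were between -0.14 and 0.01, between -0.19 and 0.13, and between -0.15 and 0.09 at 1, 6 and 12 months, with 0 of 5 called each time (0.0225%, 0.00451% and 0% of all genes). At 1 µg they were between -0.07 and 0.06, between -0.16 and -0.05, and between -0.20 and 0.04, with 0 of 5 called and 0% of all genes at each time. The 6-month dose trend called 0 of 5 genes and 1.34% of all genes.

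Over all 15 comparisons of an exposed group with DM, 75 differences were estimated and 72 of them were under 0.25 in size, which is a 1.19-fold change. For H2-Aa, H2-Ab1 and H2-Eb1 every one of the 45 95% intervals lay between 0.749-fold and 1.34-fold. For H2-DMa and Ciita the intervals reached 0.596-fold and 0.626-fold at the low end. Ciita was below DM in 13 of 15 comparisons, of which the 5 at each time share the same 8 DM mice. In all 25 comparisons together, limma called 0 of 125 tests, with 11 at an unadjusted p under 0.05.

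**Figure D3:**
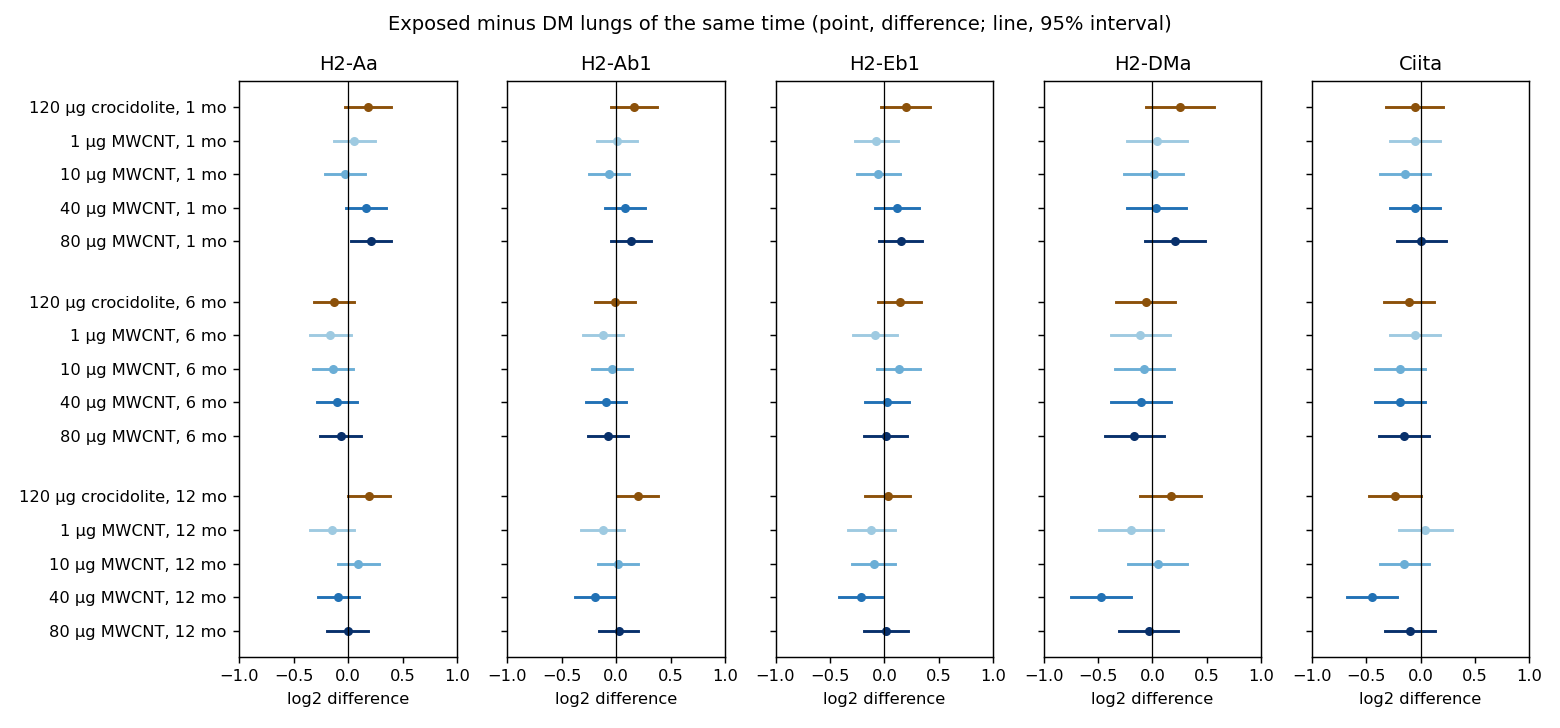
Log2 difference of each class II gene between exposed and DM lungs of the same time (horizontal axes), with 95% intervals as lines, for 15 comparisons. The points of H2-Aa, H2-Ab1 and H2-Eb1 lie between -0.22 and 0.21, and the lowest points are those of H2-DMa (-0.47) and Ciita (-0.45) at 40 µg and 12 months.

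The DM lungs themselves were compared over time. Ciita was between 6.91 and 7.49 with a median of 7.20 at 6 months, and between 6.64 and 7.16 with a median of 6.92 at 1 month, a difference of 0.28 ± 0.12 (SE; limma, adjusted p = 0.409; n = 8 and 8). At 12 months it was 0.10 above 1 month (adjusted p = 0.801). H2-Eb1 was 0.16 and H2-DMa 0.19 above 1 month at 12 months, with adjusted p of 0.570 and 0.631. None of the 5 genes was called at 6 or at 12 months against 1 month, where 0.135% and 1.12% of all genes were. Over all exposures, group means of Ciita were 6.79 to 6.94 at 1 month, 7.02 to 7.21 at 6 months and 6.59 to 7.08 at 12 months. Every mean at 6 months thus lay above every mean at 1 month. Levels of exposed groups at different times were not tested against each other.

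Other genes of the class II pathway were followed on a list of 21 measured genes. In 80 µg lungs 5 of 21 rose at 1 month, 3 at 6 months and 0 at 12 months, and in crocidolite lungs 5, 3 and 4 rose, with none lower in any of the 6 comparisons. Of all genes, 1.79%, 0.933% and 0.176% were called in either direction at 80 µg and 5.76%, 3.68% and 6.47% with crocidolite, and these shares hold for the lists below as well. All the lists were chosen with earlier results of these data known, so their counts were not tested against these shares. All the genes that rose, 5 in number, code for lysosomal enzymes that process antigens. Ctss, cathepsin S, which cuts the invariant chain, averaged 10.66 at 80 µg and 9.75 with DM at 1 month, a difference of 0.91 ± 0.15 (SE; limma, adjusted p = 3.46e-06). In crocidolite lungs Ctss was 1.102 ± 0.17 above DM at 1 month (adjusted p = 2.89e-07) and 0.85 ± 0.15 above DM at 12 months (2.26e-05). The median difference over the 21 genes was between -0.03 and 0.06 in the 6 comparisons, close to that of all genes (-0.03 to 0.01).

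Lgmn, the asparaginyl endopeptidase legumain, was 0.63, 0.58 and 0.15 above DM at 80 µg and 1, 6 and 12 months, and passed the test at 1 and 6 months. In crocidolite lungs it was 0.88, 0.50 and 0.62 above DM and passed each time. Ctsb, cathepsin B, was 0.54 above DM at 80 µg and 0.76 above DM with crocidolite at 1 month, and passed in 5 of the 6 comparisons, the exception being 80 µg at 12 months. Ifi30, the lysosomal thiol reductase that unfolds antigens, rose at 1 month (0.45 at 80 µg, 0.51 with crocidolite) and at 12 months with crocidolite (0.41). Ctsl, cathepsin L, rose at 1 month at 80 µg (0.43) and with crocidolite (0.89).

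These enzymes also occur in macrophages at large. Markers of monocyte-derived and interstitial macrophages rose beside them: 4 of 10 at 80 µg and 1 month, with C1qc, a complement subunit, at 0.87 and Adgre1, the F4/80 antigen, at 0.69. The mean over that list was between 7.21 and 7.72 in 80 µg lungs and between 6.91 and 7.28 in DM lungs at 1 month. In crocidolite lungs at 12 months 4 of 10 rose, with C1qb at 1.30. With crocidolite at 1 month, where Ctss differed most, 2 of 10 rose, Adgre1 (0.81) and C1qa (0.71), and Lyve1, a receptor for hyaluronan, fell (-0.64). In crocidolite lungs at 12 months the list mean was between 7.14 and 7.64, against 6.70 to 7.34 in DM lungs. The part of these cells in the enzymes' rise was not tested. Among the 5 arrays of 80 µg and the 4 of DM at 1 month without the word replacement, 0 of 21 pathway genes passed. Differences there were 0.70 for Ctss (adjusted p = 0.0832), 0.42 for Lgmn (0.346), 0.38 for Ctsb (0.437), 0.24 for Ctsl (0.827) and 0.21 for Ifi30 (0.875).

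None of the remaining 16 pathway genes was called at 80 µg or with crocidolite. Those named here were chosen after their values were seen. H2-DMb2, a beta chain of H2-M, had differences from DM between -0.43 (80 µg, 6 months) and -0.09 (80 µg, 1 month). H2-Ob, the beta chain of the H2-O inhibitor of H2-M that B cells express, had differences between -0.52 (crocidolite, 1 month) and -0.28 (80 µg, 1 month), with adjusted p of 0.0848 and 0.610. H2-Ea, the I-E alpha chain that is known to be silent in C57BL/6 mice, was between 1.42 and 3.70 on every array, under the lowest array median over features of 4.01. The levels of H2-Eb1 are thus given as RNA levels and not as a measure of the I-E molecule. Of the factors that hold Ciita at the promoter, Rfx5 differed from DM by 0.16 at 80 µg and 1 month and by 0.14 with crocidolite at 12 months.

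**Figure D4:**
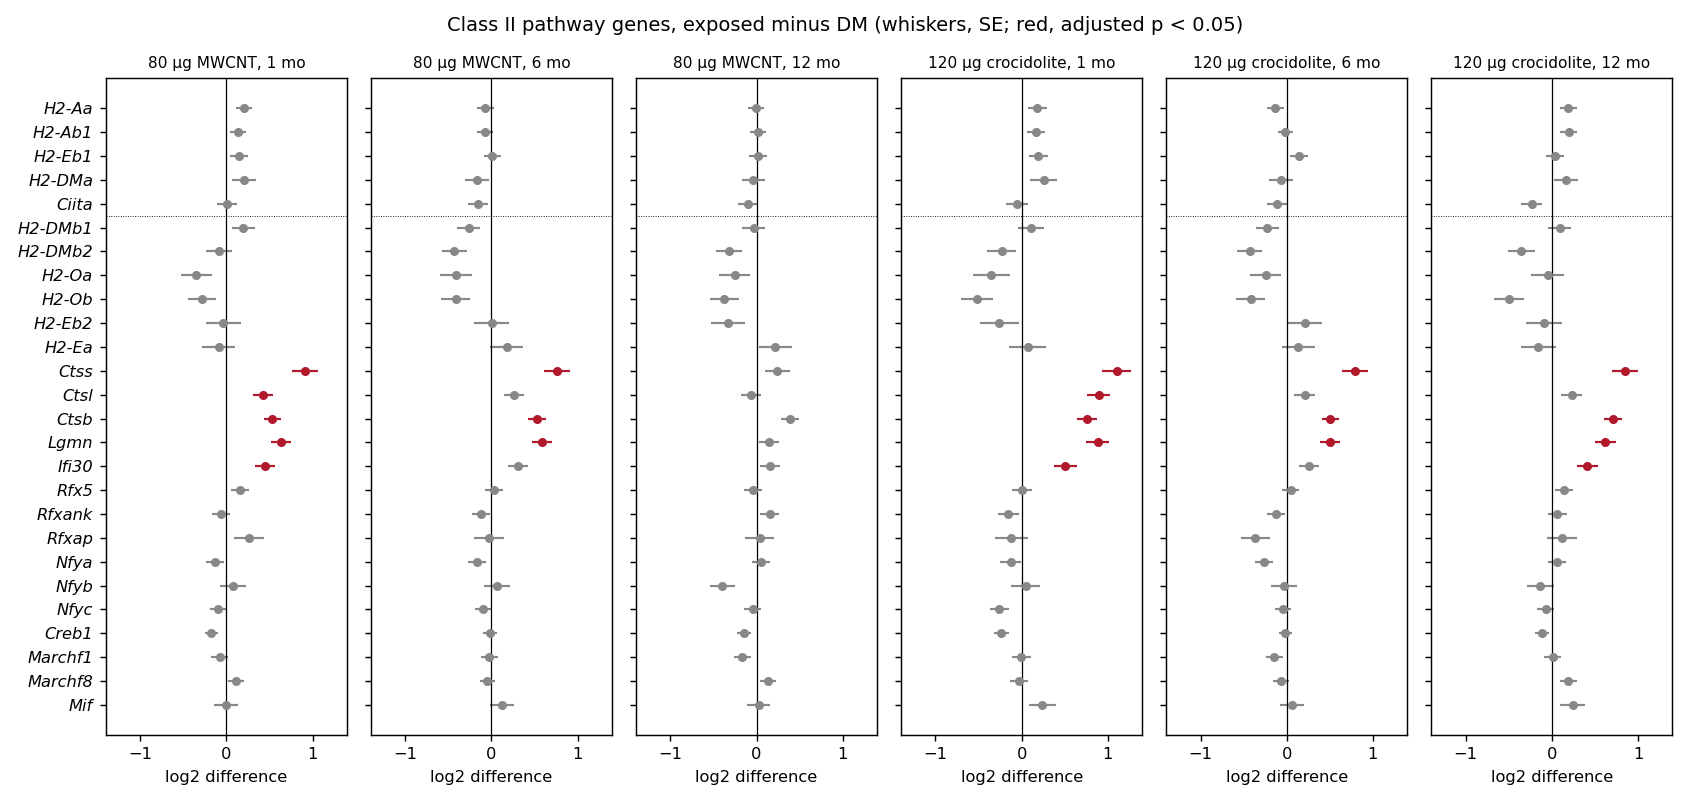
Log2 differences from DM of the 5 class II genes (above the dotted line) and of 21 other pathway genes, at 80 µg MWCNT and with crocidolite at 1, 6 and 12 months. Whiskers are SE and red points have an adjusted p under 0.05. The red points belong to Ctss, Ctsl, Ctsb, Lgmn and Ifi30, of which Ctss reaches 1.102 with crocidolite at 1 month.

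Costimulatory and cytokine genes that accompany antigen presentation were counted as well. Of 6 costimulatory genes 3 rose at 80 µg and 1 month: Pdcd1lg2, which codes for an inhibitory ligand of T cells (0.66), and Cd80 (0.62) and Cd86 (0.60), which code for ligands that stimulate T cells. Their adjusted p in limma was 0.0416, 0.0405 and 0.00491. These are genes of low level: in DM lungs they averaged 4.08, 4.89 and 4.33, under the median array median over genes of 4.93. In crocidolite lungs Pdcd1lg2 rose at 1 month (1.09), Cd274 (0.48) and Cd86 (0.47) rose at 12 months, and Cd40, which receives T cell help, fell by 0.43 at 12 months. Of 12 interferon gamma response genes 2 rose with crocidolite at 12 months, where 6.47% of all genes were called: Cxcl9 (1.36) and Cxcl10 (0.69), both chemokines that draw T cells, while at 1 month Ifngr2 rose (0.36) and Gbp3 (-0.66) and Ifngr1 (-0.28) fell. None of those 12 was called at 80 µg. Of 9 class I presentation genes 0 were called in any of the 6 comparisons, with medians between -0.13 and 0.11.

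Marker lists of the cells that carry class II, and of plasma cells and T cells, moved in different directions. Of 11 B cell markers 7 fell with crocidolite at 1 month, led by Bank1 (-0.97) and Ms4a1, which codes for CD20 (-0.93), 2 fell at 6 months, and 1 at 12 months, which was Pax5 (-0.62), named after its value was seen. At 80 µg 0 of 11 were called, with median differences of -0.42, -0.50 and -0.51 at 1, 6 and 12 months. Of 9 conventional dendritic cell markers 4 rose at 80 µg and 1 month, with Itgax, the CD11c integrin that alveolar macrophages also carry, at 1.25 and Flt3 at 0.52. The list mean of the dendritic cell markers, which includes Itgax, was between 5.77 and 6.04 in those lungs and between 5.45 and 5.74 in DM lungs. These ranges were close but did not overlap, and a mean without Itgax is not given here. In crocidolite lungs 2 of 9 rose at each time, with Itgax at 1.44, 0.85 and 1.28 at 1, 6 and 12 months. Of 8 type 2 epithelial markers 2, 1 and 0 rose at 80 µg, and 3, 1 and 4 with crocidolite, at 1, 6 and 12 months. Of 7 plasma cell markers 2, 2 and 0 rose at 80 µg and 2, 2 and 3 with crocidolite, with Jchain, the joining chain of antibodies, at 2.10 at 80 µg and 1 month. Of 8 alveolar macrophage markers 2, 0 and 0 rose at 80 µg and 2, 0 and 3 with crocidolite, with Chil3 at 1.91 in crocidolite lungs at 1 month, while Car4 fell with crocidolite at 6 months (-0.43) and at 12 months (-0.37). None of 5 plasmacytoid dendritic cell markers was called in these comparisons. Of 6 T cell markers 1 fell in each of 3 comparisons, Cd3d at 80 µg and 12 months (-0.86) and Cd8a with crocidolite at 1 and 12 months (-0.69 and -0.68).

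Within groups the class II genes varied together from mouse to mouse. Deviations of all mice from their group means correlated at r = 0.71 between H2-Aa and H2-Ab1 (rho = 0.69), at 0.73 between H2-Ab1 and H2-DMa (rho = 0.72) and at 0.71 between H2-Eb1 and H2-DMa (rho = 0.68). The permutation p, drawn within groups, was 1e-05 for each, the smallest that 100000 permutations can give, and 1.67e-05 after adjustment over 10 pairs. Without the 2 mice farthest from the median these r were 0.69, 0.72 and 0.69. In arrays without and with the word replacement r was 0.74 and 0.67 for H2-Ab1 and H2-DMa. The points share whatever differs between arrays, such as RNA quality and the cells sampled.

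Ciita correlated less with the genes it activates. Its r was 0.38 with H2-Eb1 (rho = 0.40), 0.36 with H2-Aa (rho = 0.37), 0.36 with H2-DMa (rho = 0.36) and 0.24 with H2-Ab1 (rho = 0.28), with adjusted permutation p from 5.71e-05 to 0.00777. For H2-Ab1 the relation was weak in the arrays with the word replacement (r = 0.06, 37 mice) and 0.28 in the others (100 mice).

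**Figure D5:**
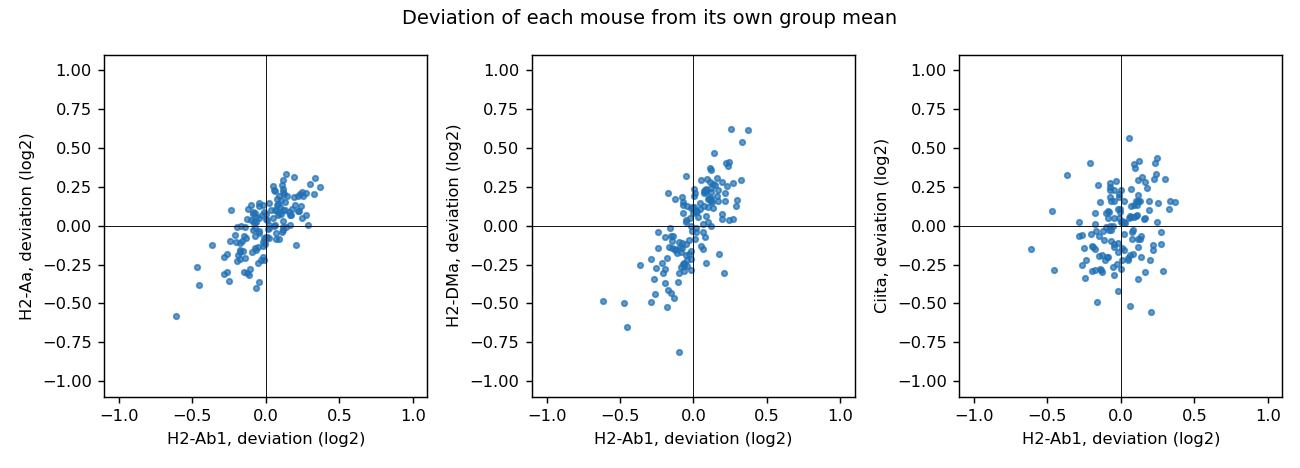
Deviation of each mouse from its group mean (log2), for H2-Aa, H2-DMa and Ciita (vertical axes) against H2-Ab1 (horizontal axes). H2-Aa (r = 0.71) and H2-DMa (r = 0.73) follow H2-Ab1, and Ciita (r = 0.24) spreads more widely around it.

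The same deviations were set against the mean of each marker list, 35 relations in all. H2-Aa followed the monocyte-derived and interstitial macrophage list most closely (r = 0.62, rho = 0.62), and H2-Eb1 the conventional dendritic cell list (r = 0.61, rho = 0.61), both with an adjusted permutation p of 3.18e-05. With the B cell list r was 0.33 for H2-Aa and 0.13 for H2-Eb1 (adjusted permutation p = 0.00116 and 0.202). The T cell list was closer, at 0.42 for H2-Aa and 0.37 for H2-Eb1 (adjusted permutation p = 3.18e-05 and 0.00028). For the type 2 epithelial list r was 0.48 and 0.30 (adjusted permutation p = 3.18e-05 and 0.0013). Ciita had r = 0.38 (rho = 0.38) with the interferon gamma list and 0.12 (rho = 0.14) with the monocyte-derived and interstitial macrophage list (adjusted permutation p = 1e-04 and 0.202). Without the 2 farthest mice the r of H2-Aa was 0.60, that of H2-Eb1 0.61 and that of Ciita with the interferon gamma list 0.40.

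The genes most like the mean of the 5 were looked up over all genes, leaving out predicted genes and olfactory receptors, and are given as a description. By within-group deviations over all mice they were Gm2a (r = 0.70), Sh3bgrl3 (0.68), Unc93b1 (0.66), Tap1 (0.65), Fcer1g (0.65), Tapbp (0.63), Ly6e (0.63) and Scamp3 (0.63). Tap1 and Tapbp code for parts of the class I peptide loading complex, and Fcer1g for the shared gamma chain of Fc receptors. By the 18 group means they were Crlf2 (r = 0.86), Ralgds (0.84), Abhd11 (0.83), Lig3 (0.83), Mars1 (0.82), Traf2 (0.82), Nfkbie (0.82) and Irs2 (0.80). The 2 lists share no gene.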

How the data were processed

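Gene expression was measured in mouse lung on Affymetrix whole-transcript arrays, labelled with the WT Plus kit per the labels' protocols. The log2 values were used as deposited by the authors, with 1 column per array and 0 columns without a sample. The submitters' processing notes name RMA, oligo and limma. For their roles and versions, and for the genome build: not given in the sources used here. Probe rows were named from the platform annotation: of 41345 features, 23521 had 1 symbol, 1814 several and 16010 none. The row with the highest mean was kept for each of 22180 genes.

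The 2 arrays of 1 mouse were averaged, leaving 1 value per mouse in 18 groups. limma 3.58.1 (R 4.3.3, the data.table package, version 1.17.8) fitted 1 mean per group with eBayes (120 residual degrees of freedom), and p-values are two-sided and adjusted by Benjamini-Hochberg over all genes. A gene was called at an adjusted p under 0.05. The fit was tested on simulated data. Correlations used deviations from group means, with 100000 permutations within groups. Figures used Python 3.11.15 and matplotlib 3.10.9.

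The 6 genes and all gene lists were chosen with earlier results of these data known. Genes of the lists were named where past the test in a comparison of 80 µg or crocidolite with DM or of DM at 12 and 1 months, at most the 6 with the largest difference per list and all of them for the class II pathway. The genes most like the members were the 8 with the highest correlation with their mean z-score, over the 5 with a row of their own. Nothing in the labels says whether mice were handled in batches, and precision is limited by the number of arrays. Alternatives covered normalization, centring, a mean filter, moderation, array weights, arrays left out, the groups in the fit, the word replacement in the titles, both arrays of that mouse, the row per gene and replicates left out.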

Additional observations from a re-analysis of the deposited data

Results flagged for a closer look

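Of 90 combinations of a gene and a group, 7 held a mouse far from the rest of its group, where chance flags about 1 in 20. The genes vary together within groups and the same mouse was flagged for several of them, so the combinations are not independent. No excess over chance is read from the count. H2-Aa in crocidolite replicate 4 at 1 month was low at 9.13, with the nearest of its group at 9.58, and that array's median correlation with the others was 0.920. H2-Eb1 in crocidolite replicate 5 at 1 month was high at 10.03, with the nearest at 9.79.

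One mouse at 1 µg and 6 months, replicate 8, was low for all 3 chain genes: H2-Aa at 8.77 (nearest 9.31), H2-Ab1 at 10.07 (nearest 10.59) and H2-Eb1 at 8.91 (nearest 9.47). In the same mouse the mean over squamous markers was 8.18, against a median of 3.45 in the other mice of its group, and that over skeletal muscle markers was 6.77, against a median of 3.65. It was also below every other mouse of its group for the lung endothelium and epithelium markers (10.64 against 11.05 at the lowest), type 2 epithelium (10.91 against 11.01), monocyte-derived and interstitial macrophages (6.69 against 6.79), conventional dendritic cells (5.24 against 5.30) and class I presentation (7.87 against 8.08). Another mouse of the group had a squamous mean of 8.65 and class II genes between 0.16 and 0.54 above the group mean. The part of these markers in the low values was not tested.

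H2-Ab1 in DM replicate 7 at 12 months was low at 10.36, with the nearest at 10.75, and its B cell mean of 6.60 was below the lowest of the others (6.84). H2-DMa in 80 µg replicate 2 at 6 months was high at 8.23, with the nearest at 7.73, and it was above every other mouse of its group for alveolar macrophages (8.04 against 7.43 at the highest), plasma cells (7.34 against 6.48), type 2 epithelium (11.44 against 11.32), conventional dendritic cells (6.06 against 5.80) and the lists of costimulation, class I presentation, interferon gamma response and class II pathway genes. The part of any of these in the values was not tested.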

How the results depend on the processing

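No value changed sign past the test, and of 369 counts of called class II genes in the comparisons and dose trends under the alternatives, the F test aside, all but 7 were as reported. For 40 µg against DM at 12 months, where 0 of 5 genes were called, 1 was called with the mean filter (Ciita; the filter leaves fewer genes tested), 2 with array weights (H2-DMa at -0.59 and Ciita at -0.42), 1 without arrays below 0.93 (Ciita) and 1 in arrays without the word replacement (H2-DMa at -0.63). Genes called in all then numbered 40, 697, 192 and 512, against 8. Leaving out single mice of that comparison, an alternative chosen after seeing the data, gave 0 to 1 (Ciita -0.50 without 40 µg replicate 7), with Ciita between -0.50 and -0.37 and H2-DMa between -0.57 and -0.41. The 12-month dose trend called 1 (Ciita) without arrays below 0.93 and 1 (Ciita) without arrays rich in squamous or muscle markers, also chosen after seeing the data, with 1409 and 431 genes called in all, against the 1.2% of all genes reported. The F test, added later too, called 1 of 5 after centring, 4 with the mean filter and 3 without arrays below 0.93 (H2-Aa gained, 0.0366), against 2. In arrays without the word it called 2, with H2-DMa gained (0.0335) and H2-Ab1 lost. Pathway genes higher than DM numbered 0 in arrays without the word replacement at 80 µg and 1 month, against 5 (5 with the word as a covariate), 1 after quantile normalization at 80 µg and 12 months, against 0, and 2 in arrays without the word with crocidolite at 12 months, against 4. Without the word they numbered 2 at 80 µg and 6 months, against 3 (Lgmn 0.0511), and 4 with crocidolite at 1 month, against 5 (Ifi30 0.328). For these changes the cause was not tested. No paired analysis was possible because the replicate numbers follow accession order and only name mice.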
